A study of Arvicanthis niloticus with 5 samples.

Results

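The genes described here encode the receptor subunits through which retinal neurons sense GABA, glycine and glutamate. They were picked by symbol alone, with no use of their levels: a gene was taken when its symbol stood for a GABA-A, GABA rho, GABA-B or glycine receptor subunit, an AMPA, kainate, delta or NMDA subunit, or a metabotropic glutamate receptor. The rule found 34 of 13983 named genes, carried by 36 transcripts. RNA sequencing was applied to eye tissue of the Nile rat, a day-active African rodent, with the stated aim of examining that tissue. The labels give 5 samples in 1 group, all wild type by strain and by genotype, with no treatment, age or time of day named. Per the labels' protocols the library was pooled from the RNA of 5 rats, and the expression table holds 1 column of values. How this column relates to the 5 listed samples is not stated, and it was treated as 1 pool, so no level below has a replicate error and no test between animals or conditions was possible.

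Photoreceptors and bipolar cells release glutamate, while most amacrine cells and horizontal cells use GABA or glycine. ON bipolar cells sense photoreceptor glutamate with the metabotropic receptor mGluR6, which is coupled to a G protein and closes a cation channel, and OFF bipolar cells sense it with ionotropic kainate and AMPA receptors. GABA-A, GABA rho and glycine receptors are pentameric chloride channels, and GABA-B receptors are G protein-coupled heterodimers.

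Levels are in FPKM, which divides the fragments of a transcript by its length in kilobases and by the mapped fragments in units of 1000000, so they can be set beside each other across genes of different length. The pool held 64967222 mapped fragments, of which 54798 fell on the receptor genes. Brackets hold 95% Poisson intervals, which cover counting error only, since fragments copied by PCR are not independent molecules and the spread between animals is not in them. A gene was called detected at FPKM 1 or more. In RNA of a whole eye, few cells of a type and little RNA per cell cannot be told apart.

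Markers of retinal cells and of other eye tissue were measured in the same pool. All 7 measured bipolar markers, all 9 of amacrine and horizontal cells, all 9 of ganglion cells and all 8 of Müller glia and astrocytes were detected, with medians of 10.2, 18.5, 12.3 and 82.0 FPKM. Since 93.2% of all named genes were detected, these counts say little, and all measured markers of lens, cornea, skeletal muscle and oligodendrocytes were detected too. Of the markers listed for forebrain and cerebellar neurons, 6 of 9 were carried by a symbol and 5 of these were detected. Their highest was the vesicular glutamate transporter SLC17A7 at 100.8 FPKM, which photoreceptors and bipolar cells also make, followed by CBLN1 at 6.72 FPKM, and the lowest was CBLN3 at 0.833 FPKM. None of the markers with a symbol was at 0. The bipolar markers included the receptor gene GRM6, and TRPM1, PCP2 and GNG13, which are also in the mGluR6 cascade list below. Their median is thus not an independent measure of bipolar cells beside these genes. Other marker lists also share genes with the lists below. The part of each cell type in the receptor levels was not tested.

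Receptor subunit genes were present at low to middling levels. Of the 34 genes, 32 (94.1%) were detected, against 93.2% of all named genes, so the count of detected members does not set them apart. Their median was 4.20 FPKM, against 6.50 FPKM over all named genes. At FPKM 5 or more stood 12 of the 34 (35.3%), against 59.8% of all named genes, and at FPKM 10 or more stood 6 (17.6%), against 34.0%. The levels spanned 31.3-fold, and the 5 highest genes held 44.0% of the summed level of 217 FPKM. Together the receptor genes accounted for 0.0882% of the summed FPKM of the named genes, and for 0.174% of their fragments. The members rested on long transcripts, with a median of 3236 nt for the longest transcript of a gene against 2282 nt over all named genes, and on 64 to 7426 fragments each.

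**Figure D1:**
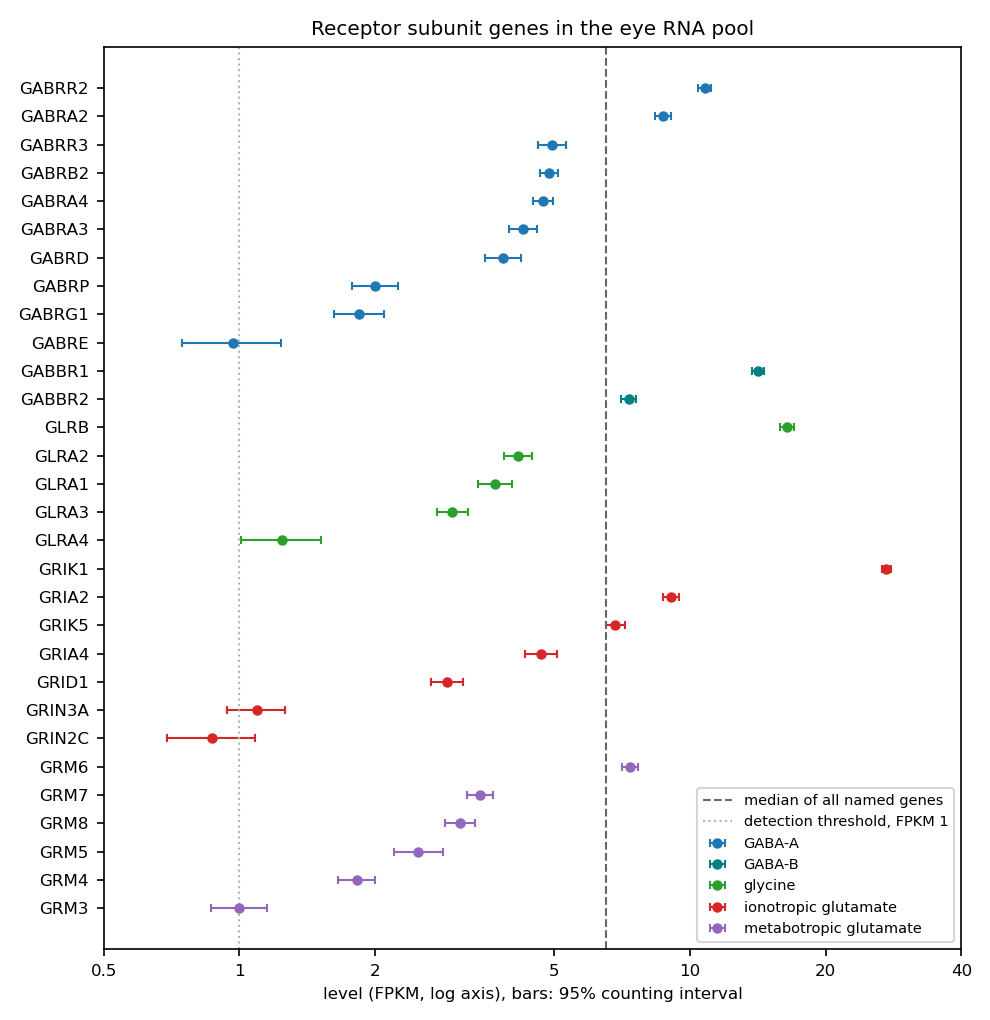
Level of each receptor subunit gene in FPKM (log axis), grouped and coloured by receptor class; bars are 95% counting intervals, the dashed line is the median of all named genes (6.50 FPKM) and the dotted line the detection threshold. Genes that are not reported one by one are left out of the plot. GRIK1 is the highest gene, and GABRE and GRIN2C lie below FPKM 1 with intervals that reach it.

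Other ion channel and receptor classes stood at similar levels. Potassium channel genes had a median of 3.50 FPKM over 58 genes, calcium, sodium and TRP channel genes 3.61 FPKM over 35, and monoamine and acetylcholine receptor genes 3.06 FPKM over 27. The share detected was 96.6%, 91.4% and 81.5% in these classes, and the share at FPKM 10 or more was 13.8%, 11.4% and 11.1%. These are descriptions of 1 pool, and no difference between the classes was tested.

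**Figure D2:**
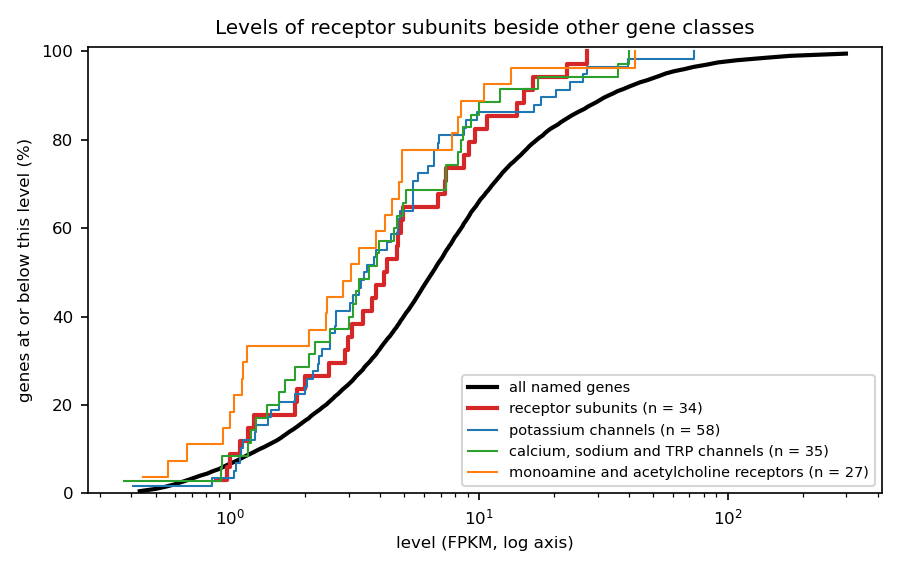
Percent of genes at or below each level (FPKM, log axis) for the receptor subunits, 3 other classes of channels and receptors, and all named genes. The receptor curve runs close to the other channel classes, and the medians of all 4 (3.06 to 4.20 FPKM) lie to the left of that of all named genes (6.50 FPKM), while at the lowest levels the curves cross.

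GABA-A receptor genes made up the largest summed level of the receptor classes. The 13 measured genes, rho subunits included, summed to 94.3 FPKM [93.0 to 95.5], or 43.4% of the receptor total, and 12 were detected. Among the alpha subunits, which shape the GABA and benzodiazepine sites, GABRA2 was at 8.71 FPKM [8.34 to 9.09]. GABRA4 was at 4.72 FPKM [4.48 to 4.96] and GABRA3 at 4.26 FPKM [3.96 to 4.57], both below GABRA2 by more than counting error.

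Beta subunits are needed to assemble the channel, and GABRB2 was at 4.86 FPKM [4.64 to 5.09], not separated from GABRA4. Gamma subunits help to hold the receptor at synapses, and GABRG1 was at 1.85 FPKM [1.62 to 2.09].

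Subunits of other kinds were low. GABRD, the delta subunit of receptors outside the synapse, was at 3.85 FPKM [3.51 to 4.23]. GABRP, the pi subunit, known mostly from epithelia, was at 2.002 FPKM [1.77 to 2.25]. GABRE, the epsilon subunit, was at 0.968 FPKM [0.745 to 1.24] on a transcript of 1018 nt with 64 fragments, the fewest of the receptor genes. Its interval reached above the detection threshold, so at this depth it could not be placed on either side.

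The rho subunits form the slow, sustained GABA receptors of bipolar cell terminals, once called GABA-C receptors. GABRR2 was at 10.8 FPKM [10.4 to 11.1] and GABRR3 at 4.95 FPKM [4.61 to 5.30], a 2.18-fold difference [2.02 to 2.35]. GABRR2 was the sixth highest receptor gene and lay above 68.3% of all named genes. No transcript carried the symbol GABRR1, so the balance of the rho subunits was described only in part.

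The GABA-B receptor needs both its subunits: GABBR1 binds GABA and GABBR2 couples to the G protein. GABBR1 was at 14.2 FPKM [13.7 to 14.6] and GABBR2 at 7.31 FPKM [7.02 to 7.60], so GABBR1 was 1.94-fold higher [1.84 to 2.04]. The transcript of GABBR2 carried an older name, GPR51, in the rat column, and with rat names taken first it was no longer counted.

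Glycine receptor genes were led by the beta subunit. GLRB, which tethers the receptor to the scaffold protein gephyrin, was at 16.4 FPKM [15.9 to 17.0], the third highest of the receptor genes. The alpha subunits, which bind glycine, were each far lower: GLRA2 was at 4.15 FPKM [3.86 to 4.45], GLRA1 at 3.70 FPKM [3.39 to 4.03], GLRA3 at 2.97 FPKM [2.74 to 3.21] and GLRA4 at 1.25 FPKM [1.01 to 1.52]. GLRB stood above the sum of all 4 alpha genes, 12.1 FPKM, by 1.36-fold [1.29 to 1.44].

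GLRA1 and GLRA2 stood close together. Their ratio was 1.12-fold in favour of GLRA2, with an interval from 1.00 to 1.25 for counting error, and any spread between animals would widen it. GLRA3 was below GLRA2 by 1.40-fold [1.26 to 1.55]. All 5 glycine receptor genes were detected, and they summed to 28.5 FPKM [27.7 to 29.3].

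Among glutamate receptors, a kainate subunit stood highest. GRIK1, the kainate subunit known from OFF bipolar cells, was the highest of all 34 genes at 27.3 FPKM [26.7 to 27.9]. It ranked at 1750 among the 13983 named genes, above 87.5% of them, and rested on 7426 fragments over a transcript of 4191 nt. GRIK5, a high-affinity subunit that works only together with another kainate subunit, was at 6.83 FPKM [6.50 to 7.17]. GRIK1 was 3.99-fold above GRIK5 [3.78 to 4.21]. GRIK2, GRIK3 and GRIK4 were carried by no symbol, so their share of kainate receptor RNA was not analysed here.

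AMPA receptors carry most fast excitation in the retina, and GRIA2 is the subunit that, once its RNA is edited, keeps calcium out of the channel. GRIA2 was at 9.07 FPKM [8.70 to 9.47], and GRIK1 was 3.01-fold above it [2.87 to 3.15]. GRIA4 summed to 4.68 FPKM [4.30 to 5.08] over 2 transcripts of 1812 and 1943 nt, at 2.33 and 2.35 FPKM, with fractional fragment counts, as fragments divided between transcripts give. The sum is too high if these are pieces of 1 mRNA: GRIA2 was 1.94-fold above GRIA4 with the sum, a log2 ratio of 0.96, and the log2 ratio was 1.95 with the higher transcript alone. It is too low if a further transcript, named GluR4c in human, is a form of GRIA4: with that transcript added, a setting chosen after the values were seen, GRIA4 was at 8.06 FPKM and GRIA2 was 1.13-fold above it [1.05 to 1.20]. The symbols GRIA1 and GRIA3 were on no transcript, and these genes were not analysed here.

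GRID1, an orphan delta receptor gene of synapse adhesion, was at 2.89 FPKM [2.66 to 3.13]. The symbols of its transcript differed between the species, so its identity is uncertain. The NMDA receptor genes found by the rule were low. GRIN3A, a subunit that lowers calcium flow, was at 1.09 FPKM [0.940 to 1.27], and GRIN2C, a glutamate-binding subunit, was at 0.871 FPKM [0.693 to 1.08], the lowest of the 34 genes. Both intervals include FPKM 1. The subunits GRIN2A, GRIN2B and GRIN2D carried no symbol, so the NMDA sum of 1.96 FPKM is not the level of NMDA receptor RNA. It was 5.82 FPKM with a transcript named GRIN1 in human, which the naming order leaves out.

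Metabotropic glutamate receptors are G protein-coupled, and those of group III, which lower cyclic AMP or act through Go, led the measured part of this class. GRM6, which encodes mGluR6, was at 7.35 FPKM [7.05 to 7.66] on 1 transcript of 4718 nt named alike in all 3 species. It was 2.15-fold [1.99 to 2.32] above GRM7 (3.42 FPKM), a receptor of presynaptic active zones. GRM8 was at 3.09 FPKM [2.87 to 3.34] and GRM4 at 1.82 FPKM [1.66 to 2.001]. GRM6 alone was close to the summed GRM4, GRM7 and GRM8, 8.34 FPKM, which was 1.13-fold higher [1.07 to 1.20].

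The other measured metabotropic receptors were low. GRM5, of group I, whose receptors raise inositol phosphates and calcium, was at 2.50 FPKM [2.20 to 2.83]. It was the sum of transcripts of 1602 nt (1.45 FPKM) and 1485 nt (1.05 FPKM), the longer named only in human and the shorter only in mouse. With the transcripts averaged by length it was at 1.26 FPKM, so its level rested on how the pieces were combined. GRM3, of group II, was at 1.00 FPKM [0.864 to 1.15], on the detection threshold. GRM2, also of group II, was carried by no symbol, so the level of this group was described only in part.

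Most neighbours in the order of the levels were not separated. Of the 33 neighbouring pairs in the order from GRIK1 down, 20 had a ratio whose counting interval included 0 on the log2 scale. Separated pairs were found near the top and also lower in the order, where GRM7 lay above GRM8, GRM5 above GABRP and GRM4 above GLRA4. The 8 highest genes, GRIK1, GLRB, GABBR1, GABRR2 and GRIA2 among them, were each separated from the next one above by more than counting error. GRIA2 and GABRA2 were not separated, nor were GRM6 and GABBR2. From GABRR3 (4.95 FPKM) down to GRM7 (3.42 FPKM), no gene was separated from its neighbour.

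Summed by class, GABA-A genes stood 1.79-fold [1.75 to 1.83] above ionotropic glutamate genes, whose 7 measured members summed to 52.7 FPKM. They stood 3.31-fold [3.21 to 3.41] above glycine receptor genes. Ionotropic glutamate genes were 2.59-fold [2.50 to 2.68] above metabotropic ones, which summed to 20.4 FPKM over 7 genes. GABA-B genes, at 21.5 FPKM over 2 genes, were 1.05-fold above the metabotropic glutamate genes [1.01 to 1.10], and this direction turned, to a log2 ratio of -0.52, when rat names were taken first. Each sum depends on which genes carried a symbol. The RefSeq gene table holds 49 genes whose symbols meet the rule, and 17 of them named no transcript under it. Of these 17, 11 were ionotropic glutamate receptor genes, 5 were GABA-A genes and 1 was metabotropic, so the ionotropic glutamate sum is the least complete.

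**Figure D3:**
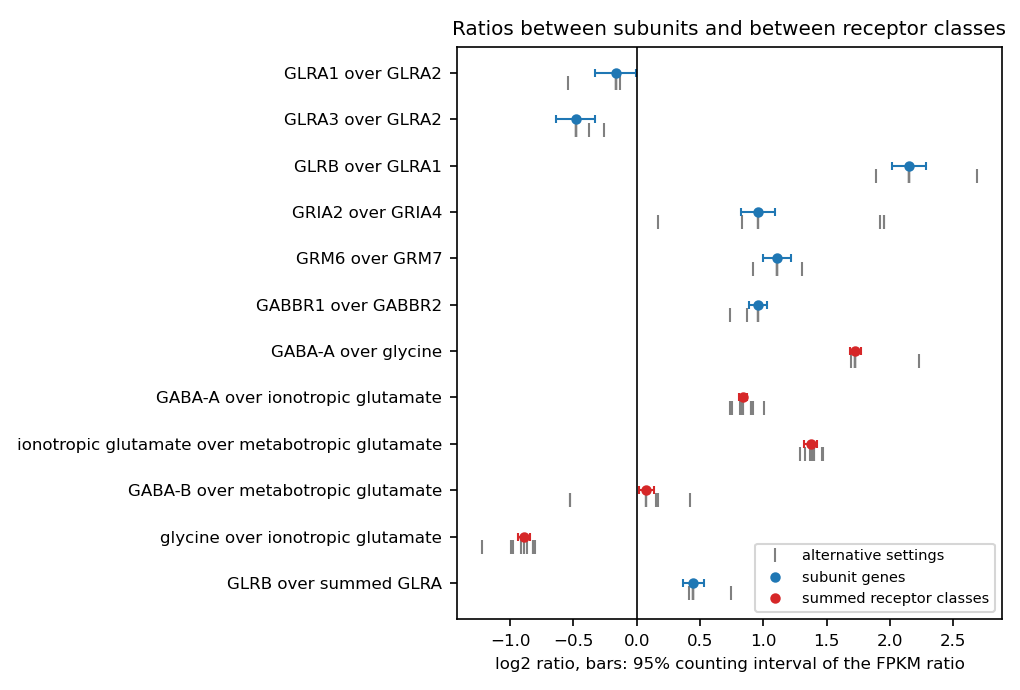
Log2 ratios between homologous subunits (blue) and between summed receptor classes (red), with 95% counting intervals; grey ticks are the values under the alternative settings, fragment counts without division by length among them. GLRB over GLRA1 is the largest ratio at 2.15, and GABA-B over metabotropic glutamate is the ratio whose ticks lie on both sides of 0.

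Across the 34 genes, level and transcript length moved together. Spearman's rho between the level and the longest transcript was 0.69 over the receptor genes, 0.69 over the 27 monoamine and acetylcholine receptor genes, 0.40 over the potassium channel genes, 0.39 over the calcium, sodium and TRP channel genes and 0.16 over all 13983 named genes. All points share 1 library, and the division by length is part of the FPKM, so this is a description only. The genes on the shortest transcripts, GABRE (1018 nt), GLRA4 (1186 nt), GRIN2C (1449 nt) and GRM5 (1602 nt), stood between 0.871 and 2.50 FPKM. The next shortest, GABRD (1805 nt) and GRIA4 (1943 nt), were higher, at 3.85 and 4.68 FPKM. Every gene of at least 10 FPKM had a transcript of at least 3170 nt. Whether the short transcripts are incomplete was not tested.

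**Figure D4:**
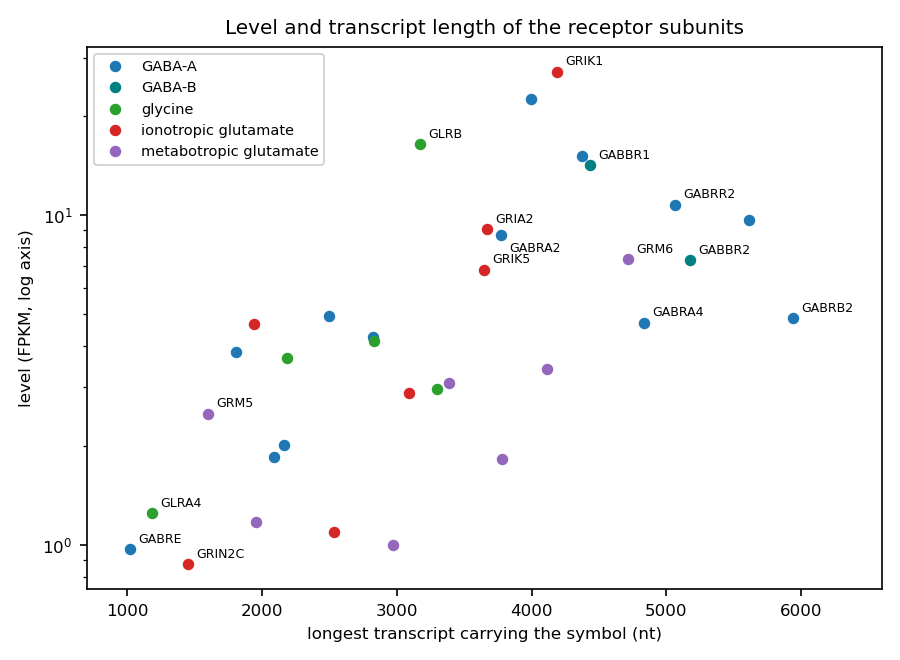
Level (FPKM, log axis) of each receptor gene against the length of the longest transcript that carries its symbol, coloured by receptor class. The shortest transcripts, of GABRE, GLRA4 and GRIN2C, lie at the bottom left, and GRIK1 stands highest.

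The proteins that work with these receptors were read from lists of genes. With 93.2% of all named genes detected, the counts of detected members in these lists are near that background. All 13 measured members of the mGluR6 cascade, of 14 listed, were detected, with a median of 11.1 FPKM. The subunits of its G protein were high, with GNAO1, the alpha subunit of Go, at 35.9 FPKM, GNB3 at 156 FPKM and GNG13 at 57.0 FPKM, but GNAO1 is made by many neurons and GNB3 also by cones. The deactivating complex was represented by RGS11 at 33.1 FPKM, RGS7 at 5.23 FPKM and GNB5 at 62.9 FPKM, with the anchors RGS9BP at 13.8 FPKM and RGS7BP at 11.1 FPKM. PCP2, a modulator of Go in ON bipolar cells, was at 10.2 FPKM.

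Of the cascade genes, the channel gene TRPM1 and the genes NYX, GPR179 and LRIT3 of proteins at the dendrite tip lay below GRM6. The anchors RGS9BP and RGS7BP, at 13.8 and 11.1 FPKM, lay above it. The cation channel TRPM1 was at 3.61 FPKM [3.30 to 3.94], 2.04-fold below GRM6 [1.85 to 2.24]. Nyctalopin (NYX) was at 5.36 FPKM, the orphan receptor GPR179 at 4.15 FPKM and LRIT3 at 2.29 FPKM, which were 1.37-fold, 1.77-fold and 3.21-fold below GRM6. GRM6, TRPM1, NYX, GPR179 and LRIT3, which are all linked to night blindness when mutated, thus stood between 2.29 and 7.35 FPKM. TRPM1 rested on a transcript of 2154 nt and GPR179 on 3820 nt, against 4718 nt for GRM6, 5544 nt for NYX and 5937 nt for LRIT3. Whether any of these transcripts is incomplete was not tested.

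Scaffold genes of inhibitory synapses stood above those of excitatory synapses in their medians, 13.4 FPKM over 14 measured genes against 4.59 FPKM over 13, a difference that was not tested. All 14 inhibitory genes were detected, led by GABARAP (104 FPKM) and GABARAPL1 (92.5 FPKM), which also serve autophagy in all cells, and the lowest was the trafficking adaptor TRAK1 at 3.82 FPKM. Of the 13 excitatory genes 12 were detected, led by the membrane fusion ATPase NSF (54.9 FPKM) and the mGluR scaffold HOMER2 (27.3 FPKM), and SHANK3 was lowest at 0.548 FPKM. Of the auxiliary subunits of glutamate receptors, 13 of 17 carried a symbol and 12 were detected, around a median of 4.18 FPKM. The AMPA receptor partners CACNG3 and CACNG4 were highest at 14.1 and 10.2 FPKM, and CACNG8 was lowest at 0.791 FPKM, on a transcript of 292 nt with 15 fragments.

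Genes that make, load and clear the transmitters had higher medians than the receptors. All 9 genes of synthesis and vesicle loading were detected, with a median of 18.5 FPKM. SLC17A7 was highest, followed by GLUL, the glutamine synthetase of Müller glia, at 72.6 FPKM, and SLC17A8, the vesicular glutamate transporter of some amacrine cells, was lowest at 4.61 FPKM. All 8 measured genes of uptake were detected, and their median was 19.9 FPKM. The glial glutamate transporter SLC1A3 (79.8 FPKM) was among the highest, and SLC6A13, a GABA transporter, was lowest at 5.71 FPKM. Of the RNA editing enzymes, ADARB1, which edits the GRIA2 transcript, was at 27.6 FPKM and ADAR at 7.11 FPKM.

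**Figure D5:**
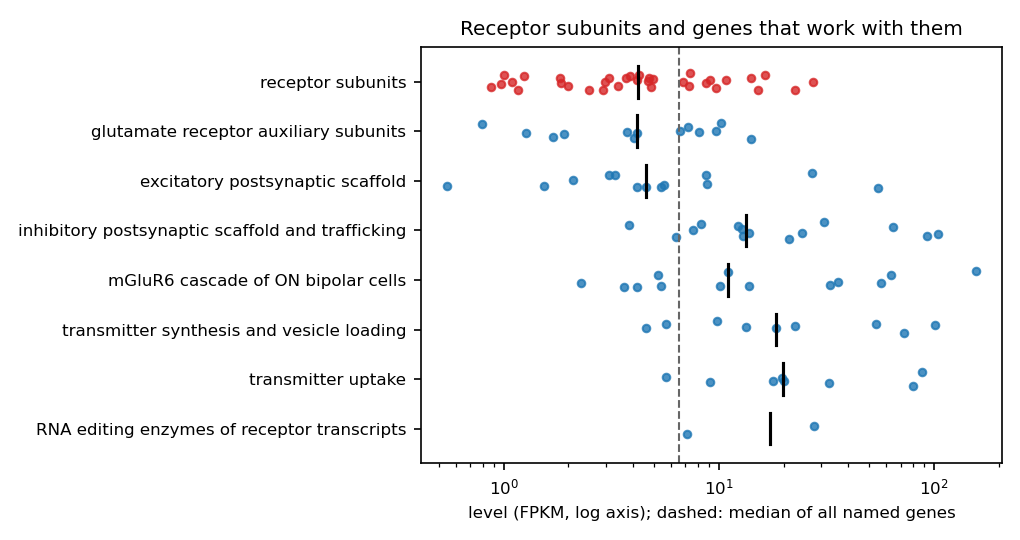
Level (FPKM, log axis) of the receptor subunits (red) and of the genes in 7 lists that work with them (blue); each point is a gene, black bars are medians and the dashed line is the median of all named genes. The medians of the receptor subunits, auxiliary subunits and excitatory scaffold lie to the left of that line, and the other 5 lists lie to its right.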

How the data were processed

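RNA of Nile rat eyes was sequenced, and the authors deposited 1 expression table for the whole series and tables of orthologs. Per the file headers, the expression table gives for each of 124439 transcripts the FPKM, the fragments and the length. The fragments, as deposited, are estimated counts that can be fractional. The FPKM deposited by the authors equals these counts divided by full length and by the stated total of mapped fragments, to a relative tolerance of 1e-07. The counts sum to 2.67% above that total. Per the submitters' processing notes Bowtie was used. Its version, the assembly method and the counting tool: not given in the sources used here.

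Names came from the deposited ortholog table: the mouse symbol, else the rat, else the human one, in capitals, skipping Ensembl and GenBank identifiers, which named 15455 transcripts. FPKM was summed per gene. Of the 36 receptor transcripts, 27 had a whole fragment count (tolerance 1e-06), and 9 did not and share fragments. Of the 34 genes, 32 had 1 transcript, 13 were named from 1 species only, and 32 matched a symbol of the RefSeq gene table (assembly mArvNil1.pat.X), which was used for names and gene order only.

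Levels carry 95% Fay-Feuer gamma intervals for Poisson counts, and ratios carry delta-method intervals. Both were tried on Poisson counts drawn around the deposited counts, which checks the formulas only. The draws hold no sharing of fragments between transcripts, no PCR copies and no spread between animals. At this depth FPKM 1 on 1000 nt rests on 65.0 fragments, and a count of 0, which allows up to 3 fragments, there means up to 0.0462 FPKM. The genes and lists were chosen with earlier results of these data known. Every gene under the rule is named, except some that count in sums and medians and are not reported here. Of each list the 2 highest and the lowest member are named, and all of the mGluR6 cascade. Of 16 chosen pairs of homologous subunits, 9 could be measured. Some further ratios were chosen after the values were seen, and so were GRIN1 and GluR4c. The planned check of transcript length against coding length was not run. The scripting language was Python 3.11.15 with SciPy 1.17.1, pandas 2.3.3, NumPy 2.4.6 and, for plots, Matplotlib 3.10.9.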

Additional observations from a re-analysis of the deposited data

Results flagged for a closer look

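Signal for a further receptor gene, GRIN1, and for a possible form of GRIA4 lay in 2 transcripts that the naming rule leaves out. A transcript of 3209 nt, named A830007P12Rik in mouse and GRIN1 in human, stood at 3.85 FPKM [3.59 to 4.13] on 803 fragments, against 0.0144 FPKM that a count of 0 would allow. GRIN1 encodes the subunit that every NMDA receptor needs, and this level was above those of GRIN3A and GRIN2C. A transcript of 5498 nt, without a mouse or rat symbol and named GluR4c in human, stood at 3.38 FPKM [3.19 to 3.58] on 1208 fragments, against an allowance of 0.00840 FPKM. GluR4c is an older name for a form of the GRIA4 product, and this transcript, with a fractional fragment count, was not added to GRIA4.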

How the results depend on the processing

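With 1 pooled column, no sample could be left out, and no paired analysis was possible because the columns carry no replicate numbers. Leaving out transcripts under 500 nt could change no value of the receptor genes, since the shortest receptor transcript had 1018 nt. This setting was not run for the lists, in which PCP2 and CACNG8 rest on such transcripts. A pseudocount of 1 moved no class ratio beyond its counting interval, and neither did human names first, which drop GRID1 and add GRIN1. With FPKM 5 as the threshold, 12 genes were detected. With the highest transcript of each gene, the ionotropic glutamate sum was 50.4 and the metabotropic sum 19.3 FPKM. The log2 ratios were then 0.90 for GABA-A over ionotropic glutamate, 0.15 for GABA-B over metabotropic and -0.82 for glycine over ionotropic glutamate. With a length-weighted mean, these 5 values were 50.4, 19.1, 0.90, 0.17 and -0.82. These shifts come from GRIA4 and GRM5, the 2 genes with several transcripts. With rat names first, or with symbols that agree between species, the GABA-B sum was 14.2 FPKM without GABBR2 and its log2 ratio to the metabotropic sum turned to -0.52. Agreeing symbols also drop GRID1, and gave 49.8 FPKM for ionotropic glutamate and log2 ratios of 0.92 (GABA-A over it), 1.29 (it over metabotropic) and -0.81 (glycine over it). In fragments per 1000000, not divided by length, the sums were 390 for GABA-A, 100.6 for GABA-B, 83.2 for glycine, 194 for ionotropic and 75.3 for metabotropic glutamate. The log2 ratios were then 2.23 for GABA-A over glycine, 1.01 for GABA-A over ionotropic glutamate, 0.42 for GABA-B over metabotropic and -1.22 for glycine over ionotropic glutamate. After the values were seen, 2 settings were added. With GluR4c counted as GRIA4 the ionotropic glutamate sum was 56.1 FPKM, with log2 ratios of 0.75 (GABA-A over it), 1.46 (it over metabotropic) and -0.98 (glycine over it). With GRIN1 taken by its human name these values were 56.6, 0.74, 1.47 and -0.99. No ratio of 2 named subunits that could be computed changed direction under these settings. Depth limits the placing of GRIN3A, GRM3, GABRE and GRIN2C, whose intervals include FPKM 1.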

Other observations

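Several of the receptor genes neighbour each other, and levels differed between neighbours. In the RefSeq gene order of the assembly mArvNil1.pat.X, GABRG1 lay beside GABRA2 with no coding gene between them, at 1.85 and 8.71 FPKM. GABRA4, with 1 coding gene between it and GABRA2, was at 4.72 FPKM. In a further cluster GABRE and GABRA3, with 1 coding gene between them, were at 0.968 and 4.26 FPKM. Outside the GABA-A genes, GRIA2 and GLRB were direct neighbours, at 9.07 and 16.4 FPKM.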
